A study of Mus musculus with 6 samples.

Results

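The 30 genes described here make cholesterol, or control that synthesis through the transcription factor SREBP2, or move sterols out of lysosomes and between membranes. They were taken by gene symbol from the deposited count table, which holds 57010 genes, and each of the 30 symbols matched 1 row. There were 21 synthesis enzymes and associated proteins, 6 genes of SREBP2 control and 3 genes of sterol transport. The RNA came from primary neonatal mouse cardiomyocytes (NMCMs) of C57BL/6 mice, the fraction of digested hearts that did not adhere in a first plating, kept under hypoxia (HO) in a gas mixture without added oxygen. In the HO + Vehicle group (libraries V1 to V3) the hypoxic cells received vehicle, and in T4 to T6, the HO + β-SITO group, they received β-sitosterol. Hypoxia was shared by both groups, no normoxic library was analysed here, and neither the labels nor the methods give the dose and time of these libraries. Nothing in the labels says whether the 3 libraries of a group came from separate cultures, so the p-values measure only the spread between these libraries.

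β-Sitosterol is a plant sterol that differs from cholesterol by an ethyl group on the side chain. Cells build cholesterol from acetyl-CoA through mevalonate, farnesyl diphosphate, squalene and lanosterol, and most genes of this route are known targets of SREBP2. SREBP2 is made as a membrane protein of the endoplasmic reticulum. When sterols are scarce, its escort SCAP carries it to the Golgi, where the site-1 and site-2 proteases release the active fragment. When sterols are plentiful, INSIG proteins hold SCAP and SREBP2 back, and the target genes are transcribed less.

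Promoter sequences are shown first because SREBP2 is known to act together with NF-Y, which binds CCAAT boxes, and with Sp1, which binds GC boxes. Of the 30 genes, 25 had at least 1 promoter window in a RefSeq table of build GRCm38.p6, each window with 250 bases before and 50 bases after a transcription start. The table had no entry for Fdps, Fdft1, Sqle, Stard4 and Npc1. The 250 bases before the start are printed below for 4 genes whose transcripts were lower by more than 3-fold in the HO + β-SITO group (Hmgcs1, Idi1, Cyp51 and Insig1) and for Mbtps1, which was not lower. They run 5′ to 3′ along the strand of the gene, and capitals mark every match, on either strand, to TCACNCCAC (the core of a sterol regulatory element), CACGTG (E-box), CCAAT (NF-Y box) and GGGCGG (Sp1 box).
Hmgcs1 (chr13:119690101-119690350, plus strand): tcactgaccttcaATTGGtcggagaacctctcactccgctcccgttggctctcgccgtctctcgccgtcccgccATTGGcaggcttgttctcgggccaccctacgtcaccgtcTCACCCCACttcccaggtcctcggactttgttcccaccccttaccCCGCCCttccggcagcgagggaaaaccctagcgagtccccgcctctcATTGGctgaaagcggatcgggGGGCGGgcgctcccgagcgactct
Idi1 (chr13:8885356-8885605, plus strand): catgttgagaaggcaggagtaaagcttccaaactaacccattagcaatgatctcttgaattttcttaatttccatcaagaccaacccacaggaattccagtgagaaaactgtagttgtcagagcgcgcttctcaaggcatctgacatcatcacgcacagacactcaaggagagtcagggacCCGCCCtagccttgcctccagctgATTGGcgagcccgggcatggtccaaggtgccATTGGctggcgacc
Cyp51 (chr5:4104698-4104947, minus strand): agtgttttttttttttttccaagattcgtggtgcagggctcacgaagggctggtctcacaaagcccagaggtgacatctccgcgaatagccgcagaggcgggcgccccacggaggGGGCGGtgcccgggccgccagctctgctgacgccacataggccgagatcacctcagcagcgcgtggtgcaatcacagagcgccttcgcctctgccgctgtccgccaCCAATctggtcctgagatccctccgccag
Insig1 (chr5:28071162-28071411, plus strand): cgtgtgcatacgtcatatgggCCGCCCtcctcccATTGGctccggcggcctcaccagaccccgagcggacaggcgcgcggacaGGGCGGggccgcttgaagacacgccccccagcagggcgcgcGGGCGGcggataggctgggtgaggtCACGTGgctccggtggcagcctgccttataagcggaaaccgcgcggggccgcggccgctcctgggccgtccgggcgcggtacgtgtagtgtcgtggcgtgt
Mbtps1 (chr8:119558762-119559011, minus strand): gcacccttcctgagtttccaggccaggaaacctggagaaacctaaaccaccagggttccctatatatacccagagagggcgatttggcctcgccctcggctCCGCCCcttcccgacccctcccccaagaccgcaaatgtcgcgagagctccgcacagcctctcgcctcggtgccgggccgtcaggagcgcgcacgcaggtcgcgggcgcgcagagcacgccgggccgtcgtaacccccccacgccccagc

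The sterol regulatory element core, searched with 9 letters on both strands, was found in 1 of the 25 genes with a window, Hmgcs1, where it began 137 bases before the start. It was found in 388 of all 27025 genes with a window (1.44%). Only this form of the element was searched, so a gene without a match may still hold the element in another form. The NF-Y box CCAAT was found in 20 of the 25 genes (80.0%), against 41.1% of all genes with a window, and the Sp1 box GGGCGG in 22 (88.0%) against 38.2%. An E-box was found in 5 of the 25 genes (20.0%) against 8.09%, and that of Insig1 began 101 bases before the start. Hmgcs1 held 3 NF-Y boxes in the printed bases, Idi1 held 2, Cyp51 and Insig1 held 1 each, and the window of Mbtps1 held no CCAAT in either direction. The 20 genes with an NF-Y box had a median log2 fold change of -1.22 and the 5 without had -0.50. Those without were Acat2 (-1.17), Erg28 (-0.94), Scap (-0.50), Mbtps2 (0.05) and Mbtps1 (0.17). Scap, Mbtps1 and Mbtps2 are genes of SREBP2 control, so the split also parts enzymes from control genes. Insig2 had the box and changed by -0.18. The 27025 genes were not limited to genes expressed in these libraries, while the 25 genes were all expressed, so the shares compare unlike sets. The motifs were chosen with these expression results known, several genes have more than 1 window, and a match to these letters is a description of the sequence only.

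All 30 genes passed the filter on low counts, and their lowest count in a single library was 59. With β-SITO, 27 of the 30 genes were lower, 2 were higher and 1 did not pass (edgeR's quasi-likelihood test, Benjamini-Hochberg adjusted p under 0.05 over 14799 tested genes). Among all tested genes, 33.8% passed as lower and 33.0% as higher. The study's threshold for differentially expressed genes (DEGs) adds a change of more than 2-fold. By it, 18 of the 30 genes were DEGs, each of them lower. Among all tested genes, 1492 (10.1%) were DEGs with lower expression and 1888 were DEGs with higher expression. The median log2 fold change of the 30 genes was -1.18, beside -0.01 for all tested genes. In 27 of the genes every HO + β-SITO library lay below every HO + Vehicle library, which was the case for 35.8% of all tested genes, and in 2 every HO + β-SITO library lay above, as for 34.8% of all tested genes. These counts are over genes of which many share a known regulator, and the genes are not replicates of the treatment.

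**Figure D1:**
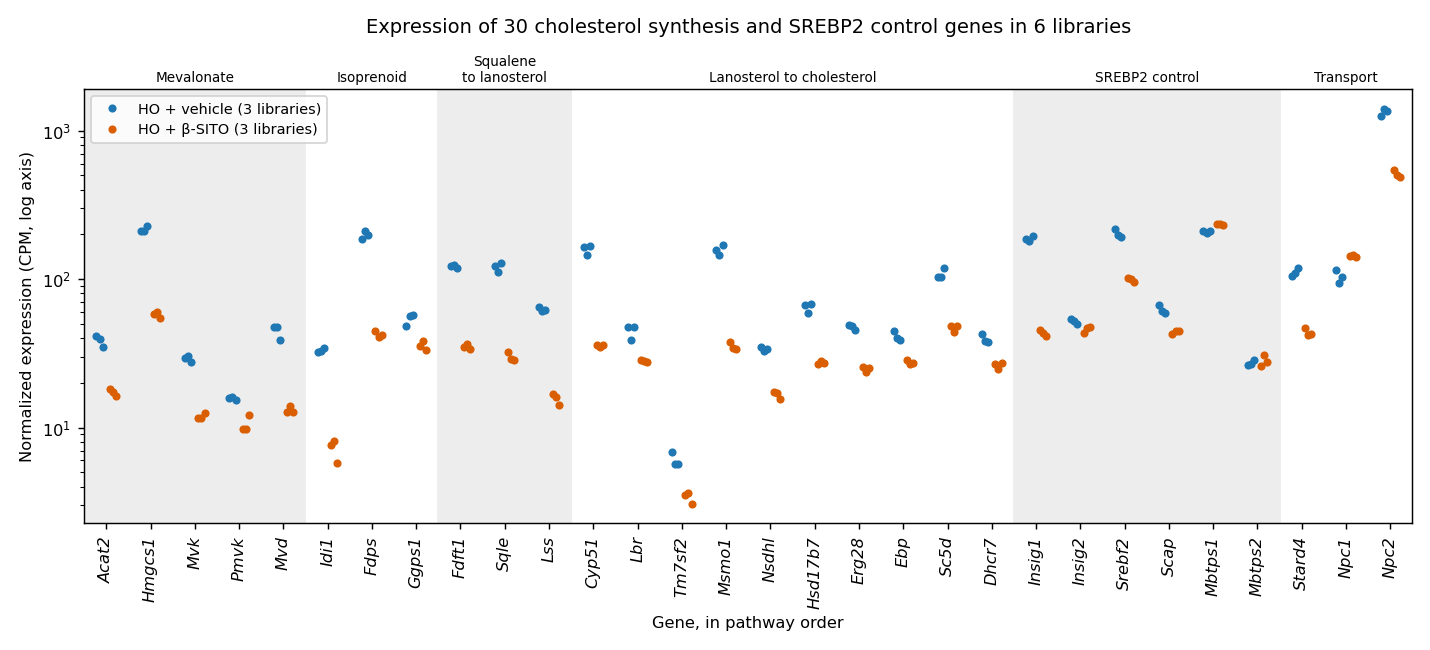
Expression of the 30 genes in each library (vertical axis, CPM after TMM normalization, log axis), in pathway order, with 1 point per library. The HO + β-SITO points lie below the HO + Vehicle points for all 21 synthesis enzymes, overlap with them for Mbtps2, and lie above them for Mbtps1 and Npc1.

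Expression is given below as CPM, counts scaled to a common library size with edgeR's TMM factors, and a fold change is always HO + β-SITO over HO + Vehicle on the log2 scale. The libraries held 16694734 to 18460522 counts, and replicates varied by 6.52% (biological coefficient of variation). With library size only, the median of all tested genes moved from -0.01 to 0.14, so a change is best read against that shift. Lower calls then made up 38.2% of all calls, in place of 50.6%. Counts per bulk library cannot tell fewer cells of a type from less RNA per cell.

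Each of the 21 synthesis enzymes was lower with β-SITO, 14 of them by more than 2-fold, with a median log2 fold change of -1.24. Summed over the 21 genes, expression was 1635, 1595 and 1673 CPM in V1 to V3 and 560.9, 546.0 and 537.8 CPM in T4 to T6, which is 2.98 times higher in the HO + Vehicle group. The groups were far apart and the libraries of each lay close together. As a share of all counts, the enzymes took 0.152% to 0.158% with vehicle and 0.0565% to 0.0591% with β-SITO. The sum of the mevalonate genes was 3.11 times higher in the HO + Vehicle group, that of the isoprenoid genes 3.33 times, that from squalene to lanosterol 3.80 times and that from lanosterol to cholesterol 2.58 times.

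The mevalonate stretch turns acetyl-CoA into isopentenyl diphosphate, and all 5 of its genes fell. Hmgcs1, which encodes the cytosolic HMG-CoA synthase and lies on chromosome 13 from 120151915 to 120169796 (GRCm39), had 209.3, 209.3 and 225.9 CPM in V1 to V3 and 57.8, 59.8 and 55.0 CPM in T4 to T6 (log2 fold change -1.90, SE 0.0617, adjusted p = 3.91e-13). Values within each group lay close together, and the mean was 3.74 times lower with β-SITO. Mvd, the decarboxylase that ends the stretch, had 47.3, 47.6 and 38.9 CPM in V1 to V3 and 12.7, 13.9 and 12.8 CPM in T4 to T6 (log2 fold change -1.77, SE 0.0934, adjusted p = 1.65e-10). Its V3 value lay below V1 and V2 and still well above every HO + β-SITO library. Mvk, mevalonate kinase, had 29.2, 30.5 and 27.8 CPM in V1 to V3 and 11.6, 11.6 and 12.6 CPM in T4 to T6 (log2 fold change -1.29, SE 0.0835, adjusted p = 2.03e-09). Acat2, the thiolase of the first step, had 41.4, 39.7 and 34.9 CPM in V1 to V3 and 18.1, 17.3 and 16.2 CPM in T4 to T6 (log2 fold change -1.17, SE 0.0855, adjusted p = 8.74e-09). Pmvk, phosphomevalonate kinase, had 15.7, 16.0 and 15.3 CPM in V1 to V3 and 9.76, 9.72 and 12.2 CPM in T4 to T6 and was the enzyme of this stretch with the smallest change (log2 fold change -0.57, SE 0.107, adjusted p = 2.31e-04). T6 was the highest of its HO + β-SITO libraries and did not reach the vehicle range.

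The isoprenoid stretch joins these units into farnesyl and geranylgeranyl diphosphate, which also serve protein prenylation. Fdps, farnesyl diphosphate synthase, on chromosome 3 from 89000895 to 89009266, had the largest decrease of the 30 genes. It held 185.8, 209.6 and 197.2 CPM in V1 to V3 and 45.0, 40.5 and 42.1 CPM in T4 to T6 (log2 fold change -2.21, SE 0.0672, adjusted p = 1.73e-13), 4.64 times lower with β-SITO and without overlap. Idi1, which interconverts the isoprenoid units, had 32.1, 32.5 and 34.2 CPM in V1 to V3 and 7.66, 8.15 and 5.78 CPM in T4 to T6 (log2 fold change -2.20, SE 0.108, adjusted p = 6.86e-11). A processed pseudogene, Idi1-ps1, had a mean of 26.3 counts in the HO + Vehicle group and 4.33 in the HO + β-SITO group, beside 526 and 135 for Idi1, so reads of the 2 copies may be split between them. Ggps1 encodes geranylgeranyl diphosphate synthase, which draws farnesyl diphosphate away from sterols. It had 48.3, 56.5 and 57.5 CPM in V1 to V3 and 35.7, 38.4 and 33.4 CPM in T4 to T6 (log2 fold change -0.59, SE 0.0808, adjusted p = 1.01e-05), a decrease that passed the test without reaching 2-fold. Ggps1 shares 257 bases with Arid4b on the opposite strand, whose mean count was 497 with vehicle and 635 with β-SITO.

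From squalene to lanosterol, all 3 genes were DEGs. Fdft1, squalene synthase and the first enzyme committed to sterols, had 123.1, 125.0 and 119.4 CPM in V1 to V3 and 34.6, 36.4 and 33.7 CPM in T4 to T6 (log2 fold change -1.81, SE 0.0611, adjusted p = 6.17e-13). The gene shares 774 bases with Ctsb on the opposite strand, whose mean count was 22387 in the HO + Vehicle group and 39121 in the HO + β-SITO group, and the strand setting of the counting is not given in the sources used here. Sqle, squalene epoxidase, a rate-limiting enzyme of the route, had 122.2, 112.0 and 128.3 CPM in V1 to V3 and 32.0, 29.1 and 28.6 CPM in T4 to T6 (log2 fold change -2.02, SE 0.0720, adjusted p = 1.28e-12). Lss, lanosterol synthase, had 65.1, 60.5 and 62.2 CPM in V1 to V3 and 16.9, 16.0 and 14.1 CPM in T4 to T6 (log2 fold change -2.00, SE 0.0793, adjusted p = 4.89e-12). These 3 genes were 3.51, 4.04 and 3.99 times lower, and T6 held the lowest HO + β-SITO value of each.

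The last stretch, from lanosterol to cholesterol, ran from -2.15 for Cyp51 to -0.59 for Dhcr7 on the log2 scale. All 10 genes passed as lower and 5 were DEGs. The 2 with the largest decreases act on the methyl groups of the sterol. Cyp51, lanosterol demethylase, on chromosome 5 from 4131145 to 4154746, had 163.6, 145.4 and 165.7 CPM in V1 to V3 and 36.0, 34.7 and 36.0 CPM in T4 to T6 (log2 fold change -2.15, SE 0.0673, adjusted p = 2.50e-13). Msmo1, the methylsterol oxidase, had 156.7, 144.6 and 170.2 CPM in V1 to V3 and 37.9, 34.2 and 33.9 CPM in T4 to T6 (log2 fold change -2.15, SE 0.0739, adjusted p = 7.75e-13). Both were over 4-fold lower, 4.45 and 4.44 times. Cyp51 shares 166 bases with Akap9 on the opposite strand, whose mean count was 973 with vehicle and 851 with β-SITO. Nsdhl and Hsd17b7 work with Msmo1 in removing these methyl groups, and Erg28 encodes a scaffold for them. Hsd17b7 had 67.0, 58.6 and 68.1 CPM in V1 to V3 and 26.7, 28.0 and 27.3 CPM in T4 to T6 (log2 fold change -1.24, SE 0.0738, adjusted p = 7.08e-10), and Nsdhl had 34.7, 33.0 and 33.9 CPM in V1 to V3 and 17.2, 17.0 and 15.6 CPM in T4 to T6 (log2 fold change -1.03, SE 0.0775, adjusted p = 1.21e-08). Erg28 had 49.0, 48.3 and 45.4 CPM in V1 to V3 and 25.4, 23.8 and 25.1 CPM in T4 to T6 (log2 fold change -0.94, SE 0.0700, adjusted p = 1.08e-08) and stopped short of 2-fold. Of the enzymes that follow, Sc5d, the desaturase, fell furthest, with 102.6, 102.7 and 118.8 CPM in V1 to V3 and 48.6, 44.3 and 48.3 CPM in T4 to T6 (log2 fold change -1.20, SE 0.0718, adjusted p = 7.64e-10).

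The remaining genes of this stretch passed as lower without reaching 2-fold. Dhcr7, the reductase of 7-dehydrocholesterol, had 42.4, 38.4 and 37.6 CPM in V1 to V3 and 26.7, 24.8 and 27.2 CPM in T4 to T6 (log2 fold change -0.59, SE 0.0760, adjusted p = 5.87e-06). Ebp, the sterol isomerase, had 44.8, 40.4 and 38.9 CPM in V1 to V3 and 28.6, 26.7 and 27.0 CPM in T4 to T6 (log2 fold change -0.59, SE 0.0758, adjusted p = 5.37e-06). Lbr and Tm7sf2 encode the 2 sterol reductases of the same step, and LBR also anchors chromatin at the nuclear envelope. Lbr had 47.8, 38.7 and 47.4 CPM in V1 to V3 and 28.5, 28.0 and 27.7 CPM in T4 to T6 (log2 fold change -0.67, SE 0.0838, adjusted p = 4.32e-06). Tm7sf2 had 6.88, 5.70 and 5.64 CPM in V1 to V3 and 3.49, 3.60 and 3.07 CPM in T4 to T6 (log2 fold change -0.84, SE 0.156, adjusted p = 2.05e-04) and was the lowest expressed of the 30 genes per length, so its interval was the widest (-1.18 to -0.51). It shares 532 bases with Vps51 on the same strand, which held more counts. The Vps51 means were 324.7 in the HO + Vehicle group and 363 in the HO + β-SITO group, beside 97 and 63.7 for Tm7sf2.

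Levels between genes were compared per length, as CPM per kilobase of exon (written FPKM, with exon lengths from GENCODE vM21). Among the enzymes in the HO + Vehicle group, Fdps (46.9) and Hmgcs1 (46.8) had the highest levels, followed by Cyp51 (35.8), Fdft1 (29.0) and Msmo1 (25.6), and Tm7sf2 (1.38) had the lowest. In the HO + β-SITO group Hmgcs1 (12.5) and Ebp (11.9) stood first, with Fdps at 10.1 and Cyp51 at 8.06 FPKM. Enzymes that were high with vehicle were thus nearer to the others with β-SITO.

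**Figure D2:**
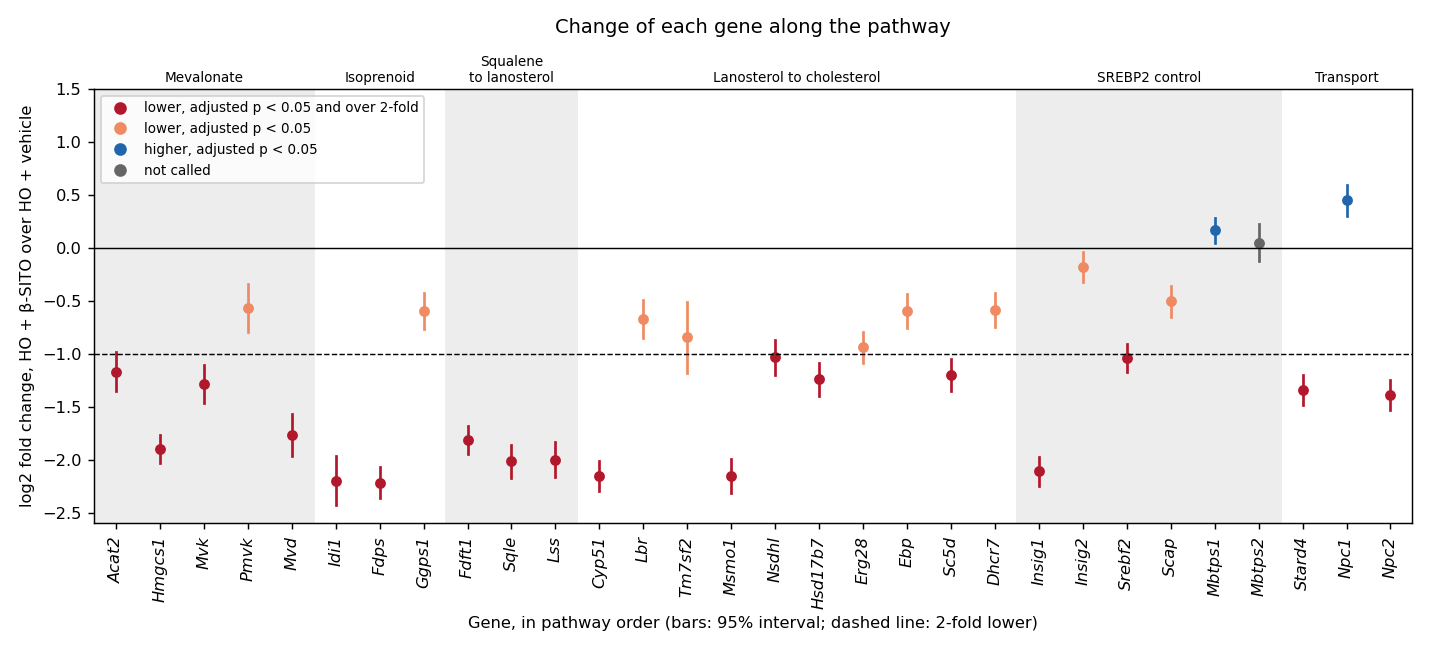
Log2 fold change of each gene, HO + β-SITO over HO + Vehicle, in pathway order, with its 95% interval from edgeR's quasi-likelihood fit and 3 libraries per group. The 21 synthesis enzymes lie below 0, from -2.21 for Fdps to -0.57 for Pmvk, and the genes of SREBP2 control and transport spread from -2.11 for Insig1 to 0.45 for Npc1.

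Genes of SREBP2 control went different ways. Srebf2, which encodes SREBP2 and is known as a target of its own product, lies on chromosome 15 from 82031382 to 82089580 and had 218.6, 199.1 and 192.6 CPM in V1 to V3 and 101.0, 99.9 and 96.0 CPM in T4 to T6 (log2 fold change -1.04, SE 0.0622, adjusted p = 7.53e-10). It was 2.05 times lower, just past 2-fold. Its log2 fold change was -0.89 with library size only and -0.96 without V1, where it was no longer a DEG while its adjusted p stayed under 0.05. Scap, the escort and sterol sensor, had 67.0, 61.4 and 59.3 CPM in V1 to V3 and 42.7, 44.8 and 44.8 CPM in T4 to T6 (log2 fold change -0.50, SE 0.0669, adjusted p = 7.77e-06), a decrease without overlap and below 2-fold.

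The 2 INSIG genes differed in the size of their change. Insig1, a known SREBP2 target whose protein retains SCAP and SREBP2, lies on chromosome 5 from 28276361 to 28283660 and had 185.0, 181.4 and 194.7 CPM in V1 to V3 and 45.6, 43.1 and 41.3 CPM in T4 to T6 (log2 fold change -2.11, SE 0.0626, adjusted p = 1.33e-13). It was 4.31 times lower, next to Fdps, Idi1, Cyp51 and Msmo1 in size. Insig2, whose protein has the same role and whose gene is not known as a main SREBP2 target, had 54.2, 51.9 and 49.5 CPM in V1 to V3 and 43.6, 46.8 and 47.4 CPM in T4 to T6 (log2 fold change -0.18, SE 0.0667, adjusted p = 0.0298). Its groups lay close together without overlap, and the call did not hold under 9 of 13 alternative settings, with an adjusted p from 0.0285 to 0.728 across all of them and the main fit. The count ratio of Insig1 to Insig2 within a library does not depend on scaling. It was 3.41, 3.49 and 3.94 in V1 to V3 and 1.05, 0.922 and 0.873 in T4 to T6 (3.61 ± 0.281 against 0.947 ± 0.0894, SD, n = 3, two-sided exact permutation test, p = 0.1, which is as low as 3 against 3 can reach). The ratio was thus lower in every HO + β-SITO library than in any HO + Vehicle library. This pair was chosen after its values were seen.

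The proteases that release SREBP2 were not lower. Mbtps1, the site-1 protease, which also processes other substrates such as ATF6, had 210.0, 204.5 and 210.3 CPM in V1 to V3 and 234.8, 235.5 and 230.5 CPM in T4 to T6 (log2 fold change 0.17, SE 0.0535, adjusted p = 0.013), a rise of 1.12 times. It passed under all 13 alternatives, with an adjusted p up to 0.0343. Mbtps2, the site-2 protease, had 26.3, 26.8 and 28.6 CPM in V1 to V3 and 26.1, 30.9 and 27.6 CPM in T4 to T6 with overlapping libraries, and did not pass (log2 fold change 0.05, SE 0.0821, adjusted p = 0.614, 95% interval -0.13 to 0.22). With upper quartile factors and with library size only it passed as higher, with a log2 fold change of 0.19 and 0.20 (adjusted p = 0.0487 and 0.0431).

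Of the transport genes, 2 fell and 1 rose. Stard4, a cytosolic sterol carrier and known SREBP2 target, had 104.7, 110.0 and 118.1 CPM in V1 to V3 and 46.5, 42.3 and 42.7 CPM in T4 to T6 (log2 fold change -1.34, SE 0.0672, adjusted p = 8.48e-11). Npc2, the soluble lysosomal protein that hands cholesterol to NPC1, lies on chromosome 12 from 84801336 to 84819926 and was by far the highest of the 30 genes per length, with 246.3 FPKM in the HO + Vehicle group and 94.1 FPKM in the HO + β-SITO group. It had 1254, 1400.1 and 1364 CPM in V1 to V3 and 544.9, 502.1 and 488.3 CPM in T4 to T6 (log2 fold change -1.39, SE 0.0662, adjusted p = 4.58e-11). Npc1, the membrane protein that exports cholesterol from lysosomes, went the other way, with 114.4, 94.0 and 103.7 CPM in V1 to V3 and 142.8, 144.2 and 140.0 CPM in T4 to T6 (log2 fold change 0.45, SE 0.0684, adjusted p = 3.00e-05), a rise of 1.37 times. It shares 967 bases with Rmc1 on the opposite strand, which held far fewer counts (means of 344.3 and 431.7).

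The 2 NPC genes, whose proteins act one after the other, therefore moved in opposite directions. The count ratio of Npc1 to Npc2 was 0.0912, 0.0672 and 0.0760 in V1 to V3 and 0.262, 0.287 and 0.287 in T4 to T6 (two-sided exact permutation test, p = 0.1). The ratio of Fdps to Ggps1, at the branch point between sterols and geranylgeranyl groups, was 3.85, 3.71 and 3.43 against 1.26, 1.05 and 1.26, and that of Cyp51 to Dhcr7, near the start and the end of the last stretch, was 3.86, 3.79 and 4.41 against 1.35, 1.40 and 1.32 (exact permutation test, p = 0.1 each). In each of these ratios vehicle and β-SITO libraries were fully separate. The pairs were chosen after their values were seen, as genes with unlike changes, so their separation and p-values are a description only.

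**Figure D3:**
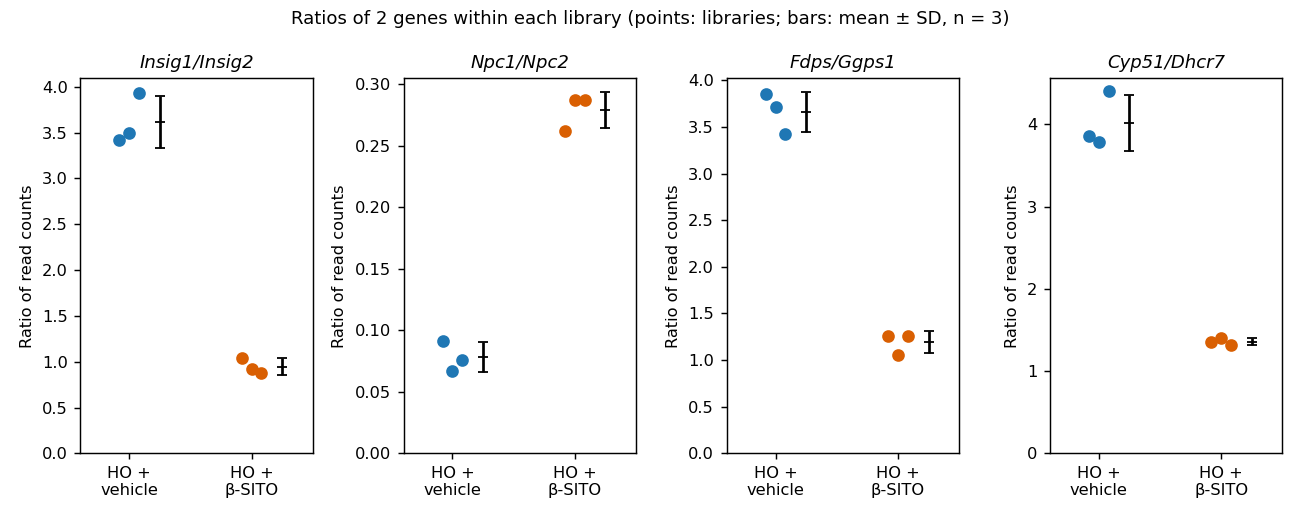
Ratio of the read counts of 2 genes within each library for 4 pairs, with points for libraries and bars for mean ± SD (n = 3). Insig1/Insig2 was 3.61 in the HO + Vehicle group and 0.947 in the HO + β-SITO group, and Npc1/Npc2 was 0.0781 and 0.279.

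**Figure D4:**
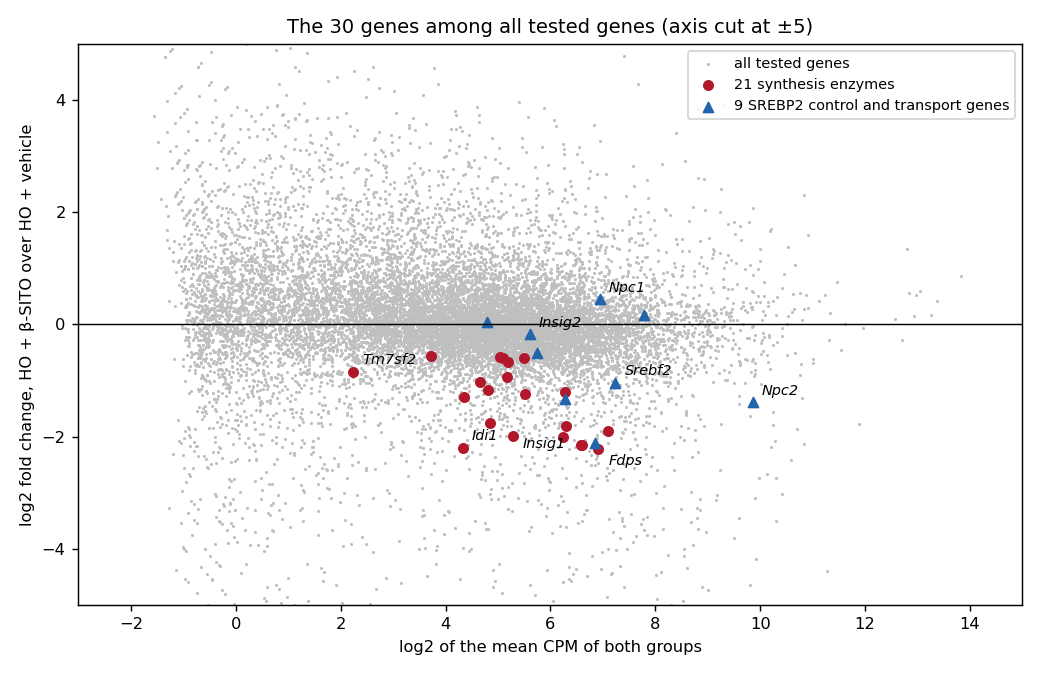
Log2 fold change of each tested gene (vertical axis, drawn between -5 and 5, with 231 genes outside) against the log2 of its mean CPM. The 21 enzymes lie below 0 in the middle and upper range of expression, where many other genes also changed in both directions.

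Other genes of the pathway were read from 5 lists of 69 genes in all. Their counts stand beside the 33.8% of all tested genes that passed as lower and the 33.0% that passed as higher. Of 13 further genes known as SREBP targets, mostly of lipid synthesis, 9 were lower and 2 higher (median log2 fold change -0.54). Elovl6, a fatty acid elongase, fell most, with 35.8, 37.9 and 38.4 CPM in V1 to V3 and 11.3, 12.8 and 11.8 CPM in T4 to T6 (log2 fold change -1.65, adjusted p = 8.01e-11), and Aldoc, a glycolytic aldolase, rose most, with 4.67, 3.82 and 4.34 CPM in V1 to V3 and 10.4, 10.9 and 11.7 CPM in T4 to T6 (log2 fold change 1.36, adjusted p = 1.68e-07). Both groups of libraries stood apart for each gene. The members of this list thus went both ways, unlike the 21 enzymes.

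Of 16 genes whose proteins bind, move or degrade SREBPs and INSIGs or extract proteins from the endoplasmic reticulum, 11 were lower and 3 higher (median -0.48). Srebf1, which encodes the SREBP of fatty acid synthesis, fell most (104.1, 90.1 and 91.0 CPM in V1 to V3 and 51.6, 52.3 and 54.3 CPM in T4 to T6, log2 fold change -0.85, adjusted p = 2.57e-08). Pgrmc1, a heme-binding membrane protein that associates with SCAP and with Cyp51, rose most (61.3, 60.7 and 67.7 CPM in V1 to V3 and 108.2, 104.5 and 103.1 CPM in T4 to T6, log2 fold change 0.74, adjusted p = 4.78e-08). Neither reached 2-fold. All 5 genes of electron donors for sterol oxidation had a negative log2 fold change and 4 passed, with Cyb5a, cytochrome b5, lowest (111.8 ± 14.1 against 64.0 ± 2.56 CPM, SD, n = 3, log2 fold change -0.80, adjusted p = 3.32e-07).

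Of 17 genes whose products use isoprenoids, 10 were lower and 1 higher (median -0.29). Pdss1, a subunit of the enzyme that makes the side chain of coenzyme Q, fell most (5.12, 5.77 and 6.26 CPM in V1 to V3 and 2.93, 2.98 and 2.34 CPM in T4 to T6, log2 fold change -1.06, adjusted p = 4.78e-05). Fnta, a subunit shared by some of the prenyltransferases, was the gene that rose (41.9, 42.9 and 50.0 CPM in V1 to V3 and 63.3, 65.7 and 60.3 CPM in T4 to T6, log2 fold change 0.49, adjusted p = 3.26e-05). Of 18 genes of sterol traffic and storage, 8 were lower and 5 higher (median 0.02), beside 33.8% and 33.0% of all tested genes. Stard5, a sterol-binding protein, fell most (48.1 ± 2.88 against 23.4 ± 2.25 CPM, log2 fold change -1.04, adjusted p = 2.46e-08), and Gramd1b, which takes cholesterol from the plasma membrane to the endoplasmic reticulum, rose most (22.7 ± 2.23 against 42.0 ± 2.54 CPM, log2 fold change 0.89, adjusted p = 1.80e-07, SD, n = 3 for both). Over the 5 lists 42 genes were lower and 11 higher, and with library size only or upper quartile factors 35 were lower and 19 higher. Among all tested genes, lower calls fell from 5007 to 3816 with library size only, and higher calls rose from 4885 to 6175.

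The cell types of the libraries were checked with 54 marker genes, and each had a count in every library. Cardiomyocyte markers were present, with Actc1 at 902.7 FPKM in the HO + Vehicle group and 905.7 in the HO + β-SITO group, and of the collagen genes of fibroblasts 2 were higher than it per length and 1 was lower, with Col1a1 at 1386 and 1858 FPKM, Col3a1 at 1062 and 1920.3 FPKM and Col1a2 at 547.2 and 822.1 FPKM. The libraries labelled as cardiomyocytes thus also held abundant transcripts of other heart cells. Of the 15 cardiomyocyte markers, Actc1 had the smallest change (log2 fold change 0.005). Myl7 rose most (means of 24.9 against 130.8 CPM, log2 fold change 2.39). Tnnt2 fell most (1236 against 892.2 CPM, -0.47). Myh6, highest in CPM, had means of 1973 and 2849 CPM, and Nppa rose from 481.3 to 1359 FPKM. Of these markers 6 were higher and 2 lower, beside 33.0% and 33.8% of all tested genes. Summed expression of the 15 cardiomyocyte markers was 6925 to 8024 CPM with vehicle and 6143 to 10487 CPM with β-SITO, with T4 the lowest. T4 also held the highest macrophage sum. Its sum of the 21 enzymes was 560.9 CPM, against 546.0 and 537.8 CPM in T5 and T6, and a relation between these sums was not tested.

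Markers of the other cell types moved with the treatment. Beside them, 33.0% of all tested genes passed as higher and 33.8% as lower. Of the 10 endothelial markers 9 were higher and 1, Eng, was lower (720 to 803 CPM in sum against 1270 to 1288). Eng held most of that sum with vehicle (means of 535.5 against 408.9 CPM), and Vwf rose most (1.31 against 22.4 CPM). Of the 12 macrophage markers 8 were higher and 2 lower (1388 to 1518 against 2869 to 3522). Mrc1 rose most (log2 fold change 4.79), and Fcgr1 (-2.18) and Cd14 (-1.56) fell. Of the 10 fibroblast markers 7 were higher and 2 lower (30124 to 31360 against 45194 to 46322), and all 7 smooth muscle markers were higher (1098 to 1189 against 1881 to 2132). The part of these cell types in the lower expression of the synthesis genes was not tested. The library names of the HO + β-SITO group carry a suffix that the others lack, and whether this marks a separate culture or preparation is not given, so such a batch and β-SITO cannot be told apart.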

How the data were processed

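Libraries were prepared from total RNA of NMCMs and sequenced as paired-end reads. The labels name an Illumina TruSeq kit and the methods an ABclonal kit. The authors deposited raw counts per gene from featureCounts for all 6 libraries, without normalization. The submitters' processing notes also name FastQC, HISAT2 and build GRCm39, and the counting options and annotation release are not given in the sources used here.

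From the deposited counts, genes were filtered with filterByExpr, normalized with TMM and compared with edgeR 4.0.16 (R 4.3.3, quasi-likelihood test, group as the only term, Benjamini-Hochberg adjustment over all tested genes). The standard error was taken as the size of the log2 fold change over the square root of F. DESeq2 1.42.0, the study's tool, and limma 3.58.1 (voom) were alternatives. The edgeR fit, and no other, was tested on simulated counts. Exon lengths were matched by gene identifier for 30 of 30 genes, and coordinates are those of the deposited table. Within-library ratios used an exact permutation test. The genes, lists and motifs were chosen with earlier results of these data known. All 30 genes are named, with full values for those of control and transport, for DEGs, and for the largest and smallest change per stretch, and in each other list the largest called rise and fall are named. Pmvk, Ggps1, Erg28, Ebp, Dhcr7, Lbr and Tm7sf2 are given in full as the enzymes below 2-fold.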

Additional observations from a re-analysis of the deposited data

How the results depend on the processing

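Among 390 log2 fold changes of the 30 genes under the alternatives, 379 kept their direction and their side of the threshold, 9 (all of Insig2) lost the call, 2 (both of Mbtps2) gained one, and 0 changed direction. Among the 18 DEGs, Nsdhl and Srebf2 fell short of 2-fold with upper quartile factors, with library size only and without V1, Nsdhl also without T6, and Acat2, Nsdhl and Srebf2 did not pass glmTreat against 2-fold. The cause was not tested. The median log2 fold change of the 30 genes was -1.04 with upper quartile factors and with library size only, where the median of all tested genes was 0.14, and -1.21 to -1.13 when single libraries were left out. The log2 ratio of the summed enzymes was -1.43 under the same 2 scalings, -1.58 with TMM and -1.59 to -1.54 when single libraries were left out. Of the 69 genes on other lists, 35 were lower and 19 higher under those scalings, against 42 and 11. With each library left out, 26 to 27 of the 30 genes were lower, 2 were higher and 16 to 18 were DEGs. Without each library, 37 to 42 genes of the other lists were lower and 10 to 12 higher. No paired analysis was possible because the replicate numbers of the groups, 1 to 3 and 4 to 6, share none.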
